A study of Zea mays with 6 samples.

Results

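Transcripts of the maturing zone of the third leaf of maize were compared with those of its base, over all features that the RNA sequencing table classes as protein-coding. These were 39313 of the 110149 features in the table, chosen by that class alone. Plants were of the inbred line B73, kept in growth chambers with 16 h light at 25 °C and 8 h darkness at 20 °C, at a photon flux of 130 µmol m-2 s-1, until the third leaf had fully expanded at 13 to 14 days. The maturing zone was 4 cm of blade taken midway along the part exposed to light. The base came from those same leaves, as the bottom 1 to 2 cm of the part that light did not reach, above a cut made 0.5 cm over the soil. Both zones are whole tissue, for which the labels name no mutation, transgene or treatment, and a zone differs from the other in age, light and cell types together. The labels describe replicates as pools of 6 plants. GEO lists 1 sample per zone, and the table gives it a column A and a column B, here called libraries maturing A and B and base A and B, of 50 bp single-end reads from poly(A) RNA. They held 50657759 and 18325106 exon reads in the maturing zone and 44243772 and 24205348 in the base over all gene classes. That A and B are separate pools is read from those labels. Except in the fit with the letter as a block, p-values measure only the spread between these 2 libraries per zone.

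A grass leaf grows from its bottom end, where cells divide and then elongate, so that position along the blade runs from young to old tissue. The base imports sugar and builds walls, ribosomes and cytoskeleton. The illuminated blade exports sugar and runs C4 photosynthesis, in which mesophyll cells capture carbon dioxide into 4-carbon acids that bundle sheath cells decarboxylate beside Rubisco. The results below follow that order: the whole span of differences, the transcripts that dominate each zone, the genes that differed most, and then photosynthesis, storage and nutrition, defence and secondary products, the wall and cytoskeleton, regulators and protein synthesis. Genes of the C4 cycle and of the cell cycle are left out of the single genes chosen by size of change.

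Markers of the zones went with their labels. All 3 mesophyll markers and all 4 bundle sheath markers were higher in the maturing zone, and 24 of 34 genes of dividing cells were lower. The bundle sheath marker ssu1 (GRMZM2G098520), a Rubisco small subunit gene, rose by 5.41 ± 1.48 log2 units (± SE, n = 2 per zone, edgeR adjusted p = 0.0454). Its call was lost with DESeq2 size factors (0.0628). With 1 library left out its difference ranged from 4.77 (without base A) to 6.55 (without base B). Of 5 vascular markers the sucrose transporter gene sut1 was higher and sus1 lower, and of 4 epidermal markers gl1 was higher and LTP3 and gl8b lower. Of 3 KNOX genes, which keep cells undetermined, knox8 was lower. In the fit with the letter as a block, 4 vascular markers were higher and 1 lower, and 1 epidermal marker was higher and 3 lower. That fit also called 2 KNOX genes lower, and of the genes of dividing cells 30 lower and 4 higher. In bulk tissue, fewer cells of a type and less RNA per cell cannot be told apart.

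The letters A and B went together across the zones. The log2 ratio of A over B in the maturing zone correlated with that in the base at r = 0.806 over 23552 genes, a description across genes that share the 4 libraries. The median size of that log2 ratio was 0.707 in the maturing zone and 0.729 in the base. Of the genes, 5530 differed between the letters by more than 1 log2 unit in the same direction in both zones and 11 in opposite directions. Transcripts of photosystems and light harvesting were higher in B than in A in both zones for 11 of 13 genes, with a median log2 ratio of A over B of -0.90 in the maturing zone and -1.87 in the base. Those 11 of 13 stand beside 10115 of all 23552 tested genes that were higher in B in both zones, and 9649 that were higher in A in both. Of tubulin and actin genes 15 of 20 were higher in B in both zones, and of primary wall growth genes 22 of 33. Ribosomal protein and translation factor genes leaned the other way, with 23 of 47 higher in A in both zones and 8 in B. Genes of dividing cells were split, with 14 of 34 higher in B in both zones and 13 in A. The part of this shared difference in the results below was not tested. A second fit with the letter as a block is given wherever a call, or a count by more than 1.5 times, depends on it. Its p-values measure only the spread left once the A to B difference shared by the zones is removed.

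**Figure D1:**
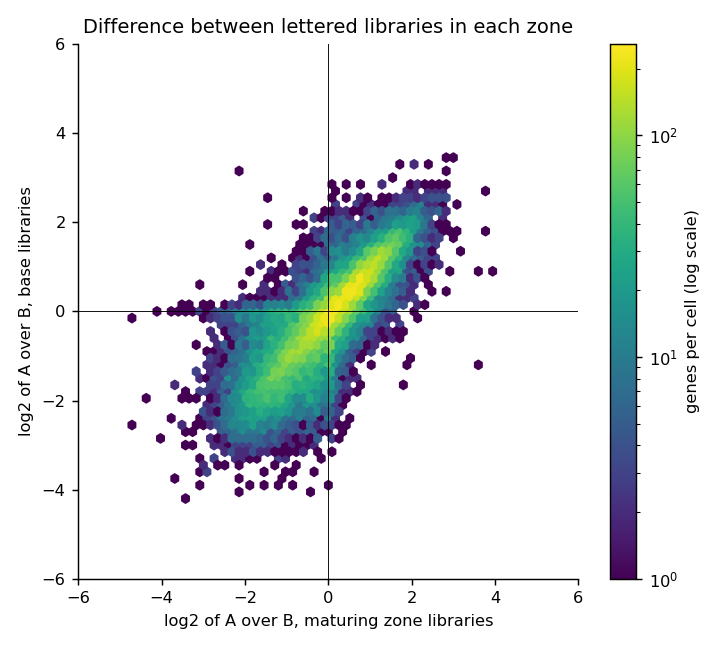
Each cell counts tested genes by their log2 ratio of library A over library B in the maturing zone (horizontal) and in the base (vertical), from TMM-scaled CPM with 0.5 added. The genes lie along the rising diagonal, with r = 0.806 over 23552 genes.

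Transcripts of 30.9% of the tested genes differed between the zones without the block, and of 78.1% with it. Of the 39313 genes, 23552 passed the filter on low counts, and 7403 had no read in any library. By edgeR's quasi-likelihood test at an adjusted p under 0.05, 3253 genes (13.8%) were higher and 4014 (17.0%) lower in the maturing zone, 7267 (30.9%) in all. With the letter as a block 8461 (35.9%) were higher and 9944 (42.2%) lower, 18405 (78.1%) in all. Every one of the 7267 was also called with the block in the same direction, and 11138 were called with the block only, with a median absolute difference of 1.43 log2 units. The median standard error of a difference was 0.77 log2 units without the block and 0.25 with it, and the smallest difference called was 1.58 without it and 0.39 with it. The smallest adjusted p was 0.013 without the block and 5.6e-07 with it, and 10724 genes had an unadjusted p under 0.05. DESeq2's test called 4584 genes (19.5%) higher and 5106 (21.7%) lower. The libraries of the zones did not overlap for 7278 genes (30.9%) higher and 9057 (38.5%) lower.

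The balance of higher and lower genes depended on the scaling and on 1 library. Scaling by library totals in place of TMM gave 2284 higher and 7686 lower, and moved the median log2 difference of all tested genes from -0.19 by -1.14 to -1.33. DESeq2 size factors moved that median by 0.11. Without maturing zone library A the counts were 3135 higher and 2508 lower. The share of calls that were higher was 44.8% by TMM, 22.9% by library totals and 55.6% without maturing zone library A. In the authors' deposited table, 3283 genes (8.35% of 39313) were higher and 4351 (11.1%) lower in the maturing zone at an FDR under 0.05. Of these, 2846 and 3689 had the same call in the fit without the block, and 0 had the opposite call.

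The differences were wide, and the lowest and the highest 1% of tested genes lay beyond -8.14 and 9.19 log2 units. The middle 50% of tested genes lay between -1.96 and 1.36, and 66.6% of genes differed by more than 1 log2 unit, 7016 upward (29.8%) and 8665 downward (36.8%). Beyond 4 log2 units, 2033 genes were higher (8.63%) and 2596 lower (11.0%). Beyond 8 log2 units, 431 were higher (1.83%) and 265 lower (1.13%). Among called genes the median difference was 4.50 for those higher and -4.48 for those lower. Presence in 1 zone alone was rarer: 85 genes had 10 reads or more in both maturing zone libraries and 0 in the base, and 225 had 10 or more in both base libraries and 0 in the maturing zone. By contrast, 17466 genes had 10 reads or more in all 4 libraries. The base libraries detected more genes at equal totals of protein-coding reads. Drawn without replacement to the protein-coding reads of maturing zone library B, 25900 and 25914 genes would have a read in maturing zone libraries A and B, against 26869 and 27343 in base libraries A and B. Equal totals are not equal depth for most genes. The 100 most read genes took 36.0 and 48.0% of reads in maturing A and B, against 11.8 and 16.1% in base A and B. The part of this imbalance in these counts, and in the 85 and 225 genes read in 1 zone alone, was not tested.

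The share of higher and lower genes changed with expression level. In 5 equal groups of tested genes, from the lowest to the highest mean level, the median difference was -0.88, -0.68, -0.30, -0.01 and 0.40 log2 units. In the lowest group, 12.6% of genes were higher and 17.5% lower. In the highest group, 21.0% were higher and 12.3% lower. Under TMM scaling, genes expressed at low levels were thus more often lower in the maturing zone, and abundant ones more often higher. These groups were not recomputed under library totals, which moved the median of all tested genes to -1.33.

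**Figure D2:**
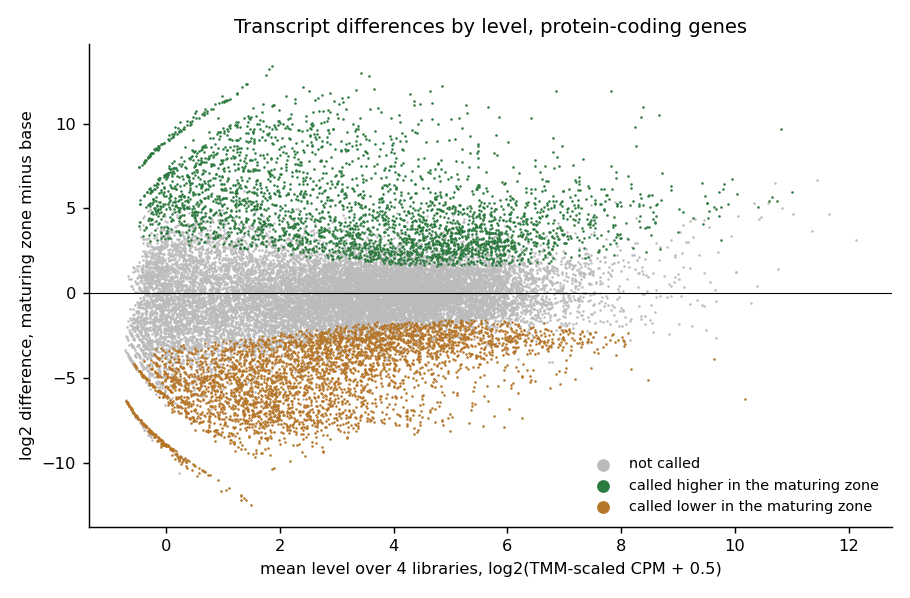
Each point is 1 of 23552 tested protein-coding genes, with its mean level over the 4 libraries (horizontal, log2 of TMM-scaled CPM plus 0.5) and its log2 difference, maturing zone minus base (vertical). Called genes differ by at least 1.58 log2 units, and the curved arms at low levels are genes with no read or few reads in 1 zone.

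The maturing zone's reads were concentrated in few transcripts, and those of the base were spread over many. The 10 most read genes held 12.3% of protein-coding reads in maturing zone library A (95% Wilson interval 12.338 to 12.356%) and 17.0% in library B (16.937 to 16.972%), against 3.35% in base library A (3.3468 to 3.3575%) and 5.25% in base library B (5.2386 to 5.2566%). The zones did not overlap, with means of 14.7% ± 3.26 and 4.30% ± 1.34 (SD, n = 2 each). Reads carry no molecular identifiers, so these intervals cover counting error only. The 100 most read genes held 36.0 and 48.0% of reads in the maturing zone, against 11.8 and 16.1% in the base. To reach 50% of the reads took 312 and 117 genes in maturing zone libraries A and B, against 1831 and 1227 in base libraries A and B. The effective number of genes, the exponential of the Shannon entropy of the read shares, was 2300 and 1201 in the maturing zone and 7939 and 6169 in the base. With 2 libraries against 2 the smallest p that an exact two-sided permutation test allows is 0.333, so no p is given for these shares. Scaled by transcript length through the authors' RPKM, the 10 most abundant genes held 10.7 and 15.1% in the maturing zone, against 2.78 and 4.93% in the base.

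**Figure D3:**
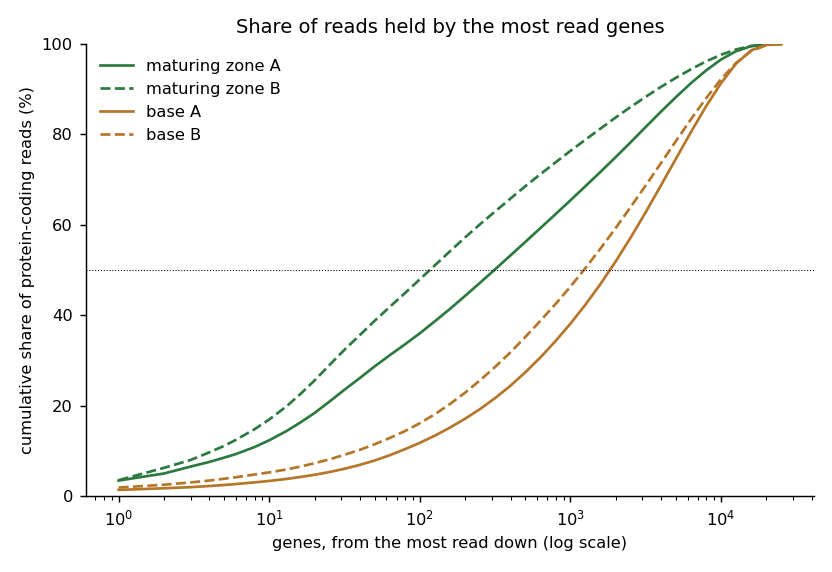
Cumulative share of protein-coding reads (vertical, percent) held by the most read genes of each library (horizontal, log scale), for maturing zone libraries A and B and base libraries A and B. The dotted line at 50% is crossed at 312 and 117 genes in the maturing zone and at 1831 and 1227 in the base.

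The dominant transcripts differed between the zones. Of the 100 most read genes, maturing zone libraries A and B shared 73 and base libraries A and B shared 51, while a maturing zone and a base library shared 1 to 9. The 100 most read genes of the maturing zone held 35.5 and 47.3% of reads there, against 1.37 and 3.44% in the base. Of these, 76 were called higher, and all 100 with the block. The 100 most read genes of the base held 4.63 and 6.47% of reads in the maturing zone, against 11.0 and 15.5% in the base. Of these 53 were called lower, and with the block 77 were lower and 8 higher. Over the whole transcriptome, genes called higher held 55.5 and 58.0% of maturing zone reads and 4.32 and 5.15% of base reads. Genes called lower held 1.73 and 1.20% of maturing zone reads and 34.9 and 39.5% of base reads, and the 16285 genes not called held 42.7 and 40.8% of maturing zone reads and 60.7 and 55.3% of base reads. Sets taken from the reads of a zone are high there by construction, so these shares describe the sets and test nothing.

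Levels are compared between genes as TPM, computed per library from the authors' RPKM and thus scaled by length. The most abundant transcript was GRMZM2G046284, which has no symbol in the RefSeq table used here, at 15020 and 23700 TPM in the maturing zone, against 209.9 and 679 in the base. PPDK (GRMZM2G306345), which regenerates the carbon dioxide acceptor of the C4 cycle, was next by mean level at 19130 and 17710 TPM in the maturing zone, against 60.1 and 47.5 in the base. The antenna protein gene Cab-m7 (lhcb7, GRMZM2G402936) was the third, at 10940 and 15080 TPM in the maturing zone, against 1587 and 5236 in the base. In the base it also ranked among the 10 most abundant, and base library B held more than base library A. The other 4 genes with no symbol among the 10 were GRMZM2G175562, GRMZM2G010884, GRMZM2G092311 and AC190623.3_FG001. The chloroplast glyceraldehyde-3-phosphate dehydrogenase subunit gpb1 (GRMZM5G845611), a Calvin cycle enzyme, was the fifth, at 7392 and 14520 TPM in the maturing zone, against 120.0 and 466 in the base. rbcS (GRMZM2G113033), a Rubisco small subunit gene, stood at 8084 and 10210 TPM in the maturing zone, against 113 and 365 in the base, and bss1 (GRMZM2G168552) at 5637 and 12410 TPM in the maturing zone, against 11.5 and 1.97 in the base. The libraries of the zones did not overlap for any of the 10.

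Of these 10, 4 passed the test without the block. They were bss1, which rose by 11.94 ± 1.94, PPDK by 9.71 ± 2.30, rbcS by 6.46 ± 1.55 and GRMZM2G010884 by 5.98 ± 1.64 log2 units (± SE, n = 2 per zone; edgeR adjusted p from 0.0159 to 0.0457). GRMZM2G046284 differed by 6.68 ± 2.02 and gpb1 by 6.48 ± 1.87, with edgeR adjusted p of 0.0583 and 0.0516. Cab-m7 differed by 3.15 ± 1.49 with an adjusted p of 0.166. With the block all 10 were called higher, Cab-m7 by 3.41 ± 0.98 (adjusted p = 0.0126). The calls of GRMZM2G010884 and PPDK were lost with DESeq2 size factors (adjusted p = 0.0657 and 0.0544), and that of GRMZM2G010884 also without maturing A (0.0535) and without base A (0.0615). DESeq2's own test called GRMZM2G046284, gpb1 and Cab-m7 as well. With 1 library left out, the differences moved by over 1.5-fold for bss1 (12.57 without maturing A, 10.67 without maturing B, 13.35 without base A and 11.22 without base B), rbcS (5.84 without maturing B, 5.76 without base A and 7.86 without base B), GRMZM2G010884 (5.35 without base A and 7.11 without base B), GRMZM2G046284 (5.84 without maturing B, 5.98 without base A and 8.08 without base B), gpb1 (7.15 without maturing A, 5.41 without maturing B, 5.73 without base A and 8.10 without base B) and Cab-m7 (2.44 without maturing B, 2.44 without base A and 4.57 without base B). rbcS and Cab-m7 belong to families of near-identical copies, between which the counting may have split reads.

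Sucrose synthase sus1 (GRMZM2G152908), which splits imported sucrose, was the most abundant transcript there, at 32.3 and 50.9 TPM in the maturing zone, against 7073 and 8834 in the base. The alpha-tubulin tua4 (GRMZM2G152466), a building block of microtubules, was the third, at 84.9 and 113 TPM in the maturing zone, against 2739 and 4393 in the base. LTP3 (GRMZM2G126397), a lipid transfer protein, was the fourth, at 2.37 and 13.8 TPM in the maturing zone, against 2366 and 4628 in the base. All 3 were lower in the maturing zone in each library. Their log2 differences were -6.26 ± 1.42, -3.90 ± 1.02 and -7.35 ± 1.53 (± SE, n = 2 per zone; edgeR adjusted p = 0.0293, 0.041 and 0.0246). The sus1 call was lost without maturing A (0.199), and that of tua4 without maturing A (0.274) and without maturing B (0.0567) and with DESeq2 size factors (0.0569). With 1 library left out, the differences were sus1 (-7.12 without maturing B), tua4 (-4.58 without maturing B and -3.26 without base B) and LTP3 (-6.42 without maturing A, -9.72 without maturing B and -6.51 without base B).

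Among the remaining abundant transcripts of the base, 2 with a symbol did not pass the test. The plasma membrane aquaporin PIP1-1 (GRMZM2G174807) stood at 617 and 796 TPM in the maturing zone, against 1816 and 3185 in the base, and the glutathione S-transferase gst1 (GRMZM2G116273) at 565 and 653 TPM in the maturing zone, against 1556 and 2498 in the base. On the TMM scale their zones overlapped, and they differed by -0.57 ± 0.88 and -0.49 ± 0.79 log2 units (edgeR adjusted p = 0.662 and 0.676). With the block neither passed (0.311 and 0.319). Of the 4 genes with no symbol, EF517601.1_FG016 and GRMZM2G162276 were lower, by log2 differences of -7.53 ± 1.47 and -7.88 ± 1.52 (edgeR adjusted p = 0.0217 and 0.0211). GRMZM2G050730 and AC195340.3_FG001 differed by -2.66 ± 1.09 and -2.17 ± 0.90 without the block (adjusted p = 0.122 and 0.125), and both were called lower with it (0.00105 and 0.00201). One-library-out differences were EF517601.1_FG016 (-6.57 without maturing A, -9.87 without maturing B and -6.63 without base B), GRMZM2G162276 (-6.96 without maturing A, -10.21 without maturing B and -7.15 without base B), GRMZM2G050730 (-1.96 without maturing A, -3.87 without maturing B, -3.25 without base A and -1.67 without base B), AC195340.3_FG001 (-2.85 without maturing B and -1.37 without base B), PIP1-1 (-1.22 without maturing B and 0.16 without base B) and gst1 (0.15 without base B), so that PIP1-1 and gst1 turned positive without base B.

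Igl, AAMT2, sps1, cat2 and vignain were among the largest increases of genes with a symbol. These were taken as the 12 with the largest called difference among 286 that reached 10 TMM-scaled CPM in both maturing zone libraries. The choice also required zones that did not overlap and a call with the block. Values of libraries A and B are in TMM-scaled CPM. Igl (GRMZM2G046163), an indole-releasing lyase of the defence response, stood at 464 and 778 in the maturing zone, against 0.313 and 0 in the base. AAMT2 (OMT2, GRMZM2G116966), an anthranilic acid methyltransferase that makes a volatile, stood at 459 and 252 in the maturing zone, against 0.503 and 0 in the base. Both had no read in base library B and few in base library A. Sucrose phosphate synthase sps1 (GRMZM5G875238), which makes the sucrose that leaves export, stood at 1413 and 2526 in the maturing zone, against 1.495 and 0.427 in the base. The catalase cat2 (GRMZM2G090568), which removes hydrogen peroxide, stood at 612 and 1501 in the maturing zone, against 0.816 and 0.823 in the base. A gene named vignain (GRMZM2G070011), after a cysteine protease, stood at 643 and 665 in the maturing zone, against 0.449 and 0.0915 in the base. The log2 differences of these 5 were 11.77 ± 1.75, 10.33 ± 1.79, 10.98 ± 1.35, 10.33 ± 1.06 and 11.15 ± 1.20 in that order (± SE, n = 2 per zone; edgeR adjusted p from 0.013 to 0.0173).

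MYBR115 (GRMZM2G049378), a MYB-related factor, stood at 116 and 170.3 in the maturing zone, against 0.0815 and 0.0610 in the base. Mlo1 (GRMZM2G032219), of a membrane protein family known in barley for powdery mildew susceptibility, stood at 88.2 and 170.0 in the maturing zone, against 0.0680 and 0.152 in the base. HAK27 (GRMZM2G455817), of a potassium transporter family, stood at 49.4 and 78.1 in the maturing zone, against 0.0544 and 0.0610 in the base. The zones lay apart in each of these, as the choice required. The silicon channel gene Lsi1 (NIP2-1, GRMZM2G028325), whose role is known from rice, stood at 62.0 and 112 in the maturing zone, against 0.0544 and 0.183 in the base, and Natterin-4 (GRMZM2G134264) at 93.0 and 66.5 in the maturing zone, against 0.122 and 0 in the base. Their differences were 10.87 ± 0.76, 10.25 ± 0.90, 10.05 ± 0.74, 9.62 ± 0.96 and 10.02 ± 1.23 log2 units, with an edgeR adjusted p of 0.013 for each. ZCN26 (GRMZM2G400167), of the family of the flowering signal FT, had 2203 and 239 reads in the maturing zone, against 1 and 0 in the base, 5133-fold higher with an exact 95% interval of 920.4 to 202800 (edgeR adjusted p = 0.013). The activase family gene rca3 (GRMZM2G162282) had 634 and 445 reads in the maturing zone, against 0 and 1 in the base, 2268-fold higher with an exact 95% interval of 406 to 89660 (edgeR adjusted p = 0.013). These ratios are of TMM-scaled reads summed over each zone. Their exact intervals, here and where given for other genes of few reads, cover counting error only and not the spread between libraries. When 1 library was left out, differences that moved by over 1.5-fold were Igl (17.07 without base A and 10.91 without base B), AAMT2 (16.27 without base A and 9.43 without base B), sps1 (12.16 without base A and 10.33 without base B), cat2 (9.49 without maturing B), vignain (12.74 without base A and 10.47 without base B), Mlo1 (9.66 without maturing B), Lsi1 (8.87 without base A and 10.54 without base B), Natterin-4 (14.12 without base A and 9.28 without base B), ZCN26 (10.92 without maturing A and 13.09 without base A) and rca3 (10.18 without maturing B, 9.73 without base A and 13.25 without base B), as fitted log2 differences, which for genes with few reads in a zone depend on the prior count. All 12 stayed called without each library.

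Beta-expansins, CSLD1, HRGP, prp2 and AD1 were among the largest decreases of genes with a symbol. These were the 12 with the most negative called difference among 281 that reached 10 TMM-scaled CPM in both base libraries. Here too the zones could not overlap and a call with the block was required. The beta-expansins expB2 (GRMZM2G021621) and expB3 (GRMZM2G474194), which loosen growing walls, had 1 and 1 and 0 and 2 reads in the maturing zone, against 1351 and 2364 and 770 and 1156 in the base. They were 884-fold lower with an exact 95% interval of 244 to 7300 (edgeR adjusted p = 0.0131) and 458-fold lower with an exact 95% interval of 127 to 3786 (edgeR adjusted p = 0.0203). CSLD1 (GRMZM2G015886), a cellulose synthase-like gene, stood at 0.0988 and 0.986 TMM-scaled CPM in the maturing zone, against 70.1 and 133 in the base. HRGP (GRMZM2G168651), a hydroxyproline-rich wall glycoprotein, stood at 0.346 and 0.691 in the maturing zone, against 141 and 72.3 in the base. prp2 (GRMZM2G102356), a proline-rich protein gene, stood at 0.0988 and 0.395 in the maturing zone, against 14.4 and 65.0 in the base. All wall genes of this group were near 0 in the maturing zone. AD1 (adherent1, GRMZM2G167438), needed in maize to keep the epidermis of young organs from fusing, stood at 0.346 and 1.97 in the maturing zone, against 113 and 364 in the base. The log2 differences of CSLD1, HRGP, prp2 and AD1 were -7.81 ± 1.29, -7.77 ± 0.80, -7.61 ± 1.26 and -7.79 ± 1.30 (edgeR adjusted p from 0.013 to 0.0163).

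ub3 (sbp7, GRMZM2G460544), an SBP factor that restrains lateral primordia in maize, stood at 0.0741 and 0.0986 TMM-scaled CPM in the maturing zone, against 14.2 and 31.6 in the base. It had 3 and 1 reads in the maturing zone, against 1042 and 1037 in the base. sbp3 (GRMZM2G101499), of the same family, had 3 and 0 reads in the maturing zone, against 744 and 419 in the base, and was 184-fold lower with an exact 95% interval of 63.0 to 896 (edgeR adjusted p = 0.0138). bHLH173 (GRMZM5G882527) had 2 and 0 reads, against 1532 and 778, and was 549.5-fold lower with an exact 95% interval of 152 to 4540 (edgeR adjusted p = 0.013). Each regulator was at or near 0 in both maturing zone libraries. TUB8 (GRMZM2G472945), a beta-tubulin, had 1 and 1 reads in the maturing zone, against 736 and 445 in the base, and was 281-fold lower with an exact 95% interval of 77.6 to 2322 (edgeR adjusted p = 0.0132). aos2 (GRMZM2G002178), an allene oxide synthase of jasmonate synthesis, stood at 0.0741 and 0.197 TMM-scaled CPM in the maturing zone (3 and 2 reads), against 18.5 and 51.1 in the base. gst12 (GRMZM2G096269), a glutathione S-transferase, stood at 0.272 and 2.56 in the maturing zone, against 168 and 548 in the base. The log2 differences of ub3, aos2 and gst12 were -8.08 ± 0.90, -8.25 ± 1.01 and -8.08 ± 1.51 (edgeR adjusted p from 0.013 to 0.0199). Leaving out 1 library moved by over 1.5-fold the differences of CSLD1 (-6.64 without maturing A and -10.00 without maturing B), prp2 (-6.58 without maturing A, -8.62 without maturing B, -8.32 without base A and -6.14 without base B), AD1 (-6.86 without maturing A, -9.44 without maturing B, -8.40 without base A and -6.76 without base B), ub3 (-7.42 without base B), aos2 (-7.39 without maturing A, -8.85 without maturing B and -7.35 without base B), gst12 (-7.07 without maturing A, -10.37 without maturing B, -8.69 without base A and -7.04 without base B), expB2 (-8.73 without maturing A, -10.71 without maturing B, -10.55 without base A and -8.64 without base B), expB3 (-6.78 without maturing A, -13.10 without maturing B, -9.29 without base A and -7.53 without base B), sbp3 (-11.77 without maturing A), bHLH173 (-12.73 without maturing A) and TUB8 (-6.82 without maturing A and -8.79 without maturing B). All 12 stayed called in each such fit.

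**Figure D4:**
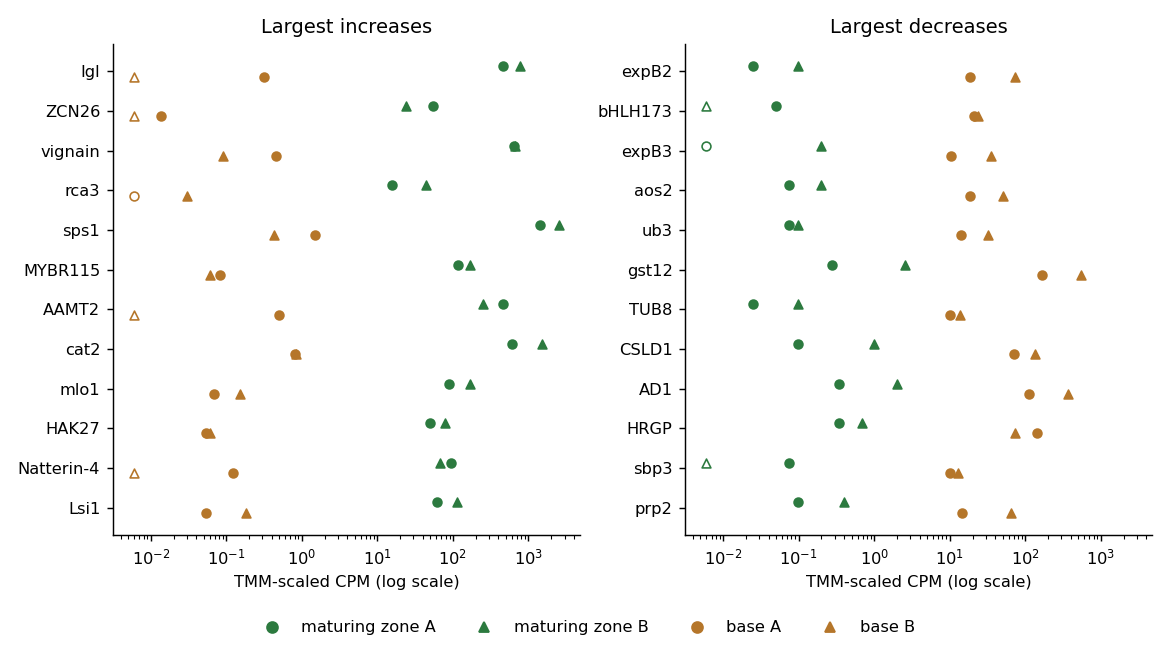
TMM-scaled CPM (log scale) of the 12 named genes with the largest increases (left) and the 12 with the largest decreases (right), in maturing zone libraries A and B (green circle and triangle) and base libraries A and B (brown). Open symbols at the left edge are libraries with 0 reads. Only genes whose zones did not overlap could enter, so the separation of the zones was fixed by the choice.

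Genes were then grouped into 20 lists by symbol, each read against the background of 13.8% higher and 17.0% lower and the median of -0.19 over all tested genes. Counts with the block stand against a background of 35.9% higher and 42.2% lower. Photosynthesis lists lay far above it. Among 13 tested genes of photosystems and light harvesting, 9 rose and 4 did not pass, and all 13 rose with the block, at a median of 4.79 log2 units. lhcb4 (GRMZM2G103101), a minor antenna protein of photosystem II, stood at 1493 and 1644 TMM-scaled CPM in the maturing zone, against 11.8 and 28.1 in the base, and rose by 6.30 ± 0.94. cab-m1 (GRMZM2G351977), another antenna gene, was far less expressed, at 4.47 and 5.52 in the maturing zone, against 0.122 and 0.213 in the base, and rose by 4.90 ± 0.87 (± SE, n = 2 per zone; edgeR adjusted p = 0.0144 and 0.0182). Of 11 Calvin cycle and photorespiration genes 7 rose and 1 fell (8 and 2 with the block), at a median of 6.12. Rubisco activase rca1 (GRMZM2G162200), which keeps Rubisco active, stood at 977 and 740.3 in the maturing zone, against 8.29 and 4.15 in the base, and rose by 7.11 ± 0.86 (edgeR adjusted p = 0.013). The 1 that fell, Pgk-1 (GRMZM2G047028), a phosphoglycerate kinase gene of low level, stood at 0.0988 and 0.296 in the maturing zone, against 1.41 and 5.09 in the base, and fell by 4.21 ± 1.19 (adjusted p = 0.0493). It had 4 and 3 reads in the maturing zone, against 104 and 167 in the base. Its call was lost without maturing A (0.213), without maturing B (0.0631) and without base B (0.151), with DESeq2 size factors (0.064) and with TMM factors computed without the 100 most read genes (0.0502).

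Pigment synthesis moved the same way. Of 16 chlorophyll and carotenoid synthesis genes 8 rose and 8 did not pass (14 rose with the block), at a median of 2.33. Phytoene synthase PSY1 (y1, GRMZM2G300348), the entry step of carotenoid synthesis, stood at 828 and 964 TMM-scaled CPM in the maturing zone, against 31.0 and 49.8 in the base, and rose by 4.47 ± 0.72. lcyE (GRMZM2G012966), the epsilon cyclase of the lutein branch, stood at 539 and 288 in the maturing zone, against 32.1 and 30.9 in the base, and rose by 3.71 ± 0.65 (± SE, n = 2 per zone; edgeR adjusted p = 0.0157 and 0.0175). Both were higher in each maturing zone library than in either base library. Counts of higher and lower members are given beside a list where another setting moved either by more than 1.5 times and by at least 3 genes. They were 14 and 0 without a count filter for the photosystem list, and 4 and 0 under library totals, 5 and 0 without maturing A and 5 and 0 without base A for the pigment list. Differences that moved by over 1.5-fold without a library were lhcb4 (7.02 without base B), rca1 (7.70 without base A) and Pgk-1 (-3.38 without maturing A, -5.02 without maturing B, -4.86 without base A and -3.05 without base B).

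**Figure D5:**
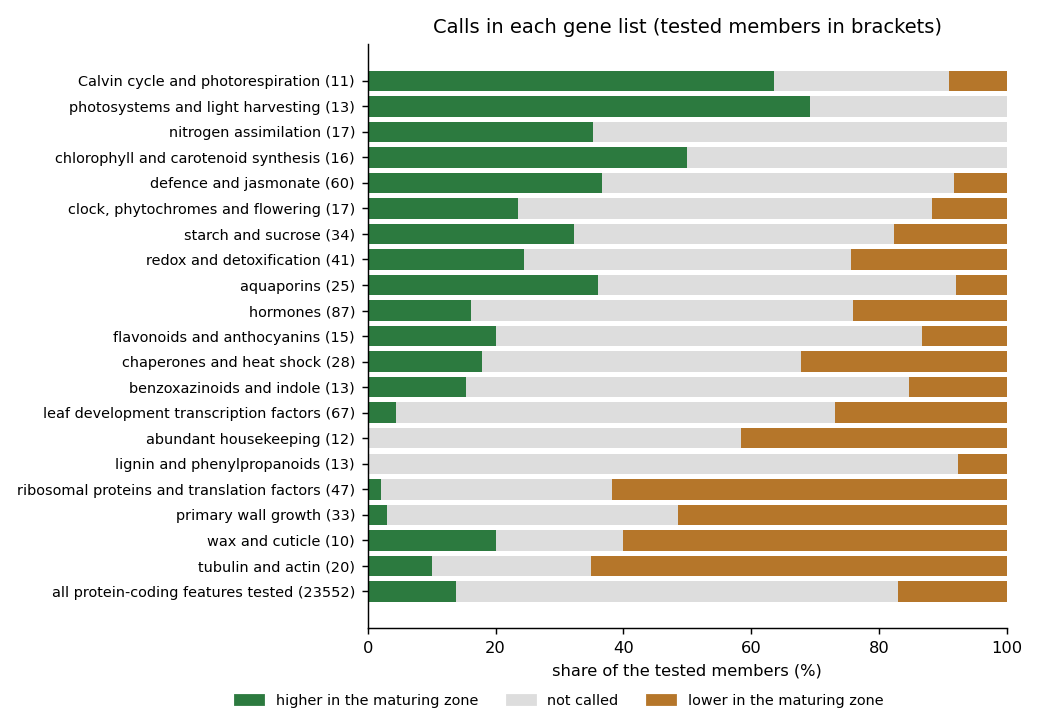
Share of tested members (percent) called higher, not called and called lower in the maturing zone, for each of the 20 lists ordered by median difference, and for all 23552 tested genes in the last bar. Photosynthesis lists head the plot with 9 of 13 and 7 of 11 higher, and tubulin and actin stand last among the lists with 13 of 20 lower.

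Storage and nitrogen genes were mixed or higher. Of 34 starch and sucrose genes 11 rose and 6 fell (18 and 12 with the block), at a median of 0.84. sxd1 (GRMZM2G009785), a tocopherol cyclase whose loss blocks sucrose export in maize, stood at 122.9 and 92.5 TMM-scaled CPM in the maturing zone, against 10.6 and 8.20 in the base, and rose by 3.52 ± 0.52. In the opposite direction, the starch synthase du1 (GRMZM2G141399) stood at 0.494 and 0.592 in the maturing zone, against 50.2 and 24.2 in the base, and fell by 6.11 ± 0.72. Agp2 (GRMZM2G106213), a small subunit of ADP-glucose pyrophosphorylase, the entry step of starch synthesis, stood at 1.804 and 1.08 in the maturing zone, against 73.4 and 32.4 in the base, and fell by 5.16 ± 0.72 (± SE, n = 2 per zone; edgeR adjusted p from 0.013 to 0.0143). Both starch genes were higher in base library A than in B. Of 17 nitrogen assimilation genes 6 rose and 11 did not pass (12 rose and 2 fell with the block), at a median of 2.58. NAR2.2 (GRMZM2G163494), a partner of nitrate transporters, had 56 and 81 reads, against 1 and 1 in the base, 144-fold higher with an exact 95% interval of 39.1 to 1201 (edgeR adjusted p = 0.0208). Glutamine synthetase gln2 (GRMZM2G024104) stood at 68.6 and 110.1 in the maturing zone, against 9.35 and 15.8 in the base, and rose by 2.83 ± 0.57 (edgeR adjusted p = 0.023), a call lost without maturing B (0.0521) and without base A (0.0915) and under library totals (0.0848).

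Water channels were split by member. Of 25 aquaporin genes 9 rose and 2 fell (11 and 5 with the block), at a median of 0.41. PIP1-5 (GRMZM2G081843), of the plasma membrane group, stood at 138 and 270.3 TMM-scaled CPM in the maturing zone, against 0.870 and 1.31 in the base, and rose by 7.55 ± 0.77. The 2 that fell were of the NIP group: NIP1-1 (GRMZM2G041980) stood at 1.41 and 4.93 in the maturing zone, against 128 and 409 in the base, and NIP3-1 (GRMZM2G176209) at 2.40 and 2.66 in the maturing zone, against 34.1 and 31.6 in the base. Their log2 differences were -6.44 ± 1.09 and -3.70 ± 0.52 (± SE, n = 2 per zone; edgeR adjusted p from 0.013 to 0.0167 over the 3). A further NIP gene of this list, Lsi1 (NIP2-1), rose by 9.62 ± 0.96, so the NIP group lay on both sides. The higher and lower counts were 7 and 9 under library totals and 8 and 3 without maturing A for starch and sucrose, 10 and 0 without base B for nitrogen, and 7 and 5 under library totals, 9 and 6 without a count filter, 5 and 4 without maturing B and 7 and 5 without base A for aquaporins. The starch and sucrose median was -0.33 by library totals, -0.28 with no count filter and -0.10 without maturing A. The aquaporin median was -0.80 by library totals, -0.24 with no count filter, -0.23 without maturing B and -0.22 without base A. Single genes that moved by over 1.5-fold without a library were du1 (-5.48 without base A), Agp2 (-4.45 without base A), PIP1-5 (6.95 without maturing B), NIP1-1 (-5.71 without maturing A, -7.59 without maturing B, -7.04 without base A and -5.40 without base B) and NAR2.2 (8.46 without maturing A, 5.90 without maturing B and 7.05 without base A).

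Defence and jasmonate genes were more often higher. Of 60 tested 22 rose and 5 fell (31 and 14 with the block), at a median of 1.06. TIFY15 (GRMZM2G005954), of a family that holds jasmonate signalling repressors, stood at 94.3 and 199 TMM-scaled CPM in the maturing zone, against 0.816 and 0.701 in the base, and rose by 7.59 ± 0.74. The terpene synthase family gene eks1 (tps1, GRMZM2G049538), named for an ent-kaurene synthase, stood at 188 and 229.6 in the maturing zone, against 1.66 and 1.22 in the base, and rose by 7.17 ± 0.64. Against them, the lipoxygenase lox1 (GRMZM2G156861) stood at 0.519 and 0.592 in the maturing zone, against 20.4 and 42.1 in the base, and fell by 5.82 ± 0.72 (± SE, n = 2 per zone; edgeR adjusted p = 0.013 for all 3). Of 13 benzoxazinoid and indole genes 2 rose and 2 fell (5 and 6 with the block), at a median of -0.69. Without the block both shares lay near the 13.8% higher and 17.0% lower of all tested genes. The 2 that fell were bx1 (GRMZM2G085381) and bx2 (GRMZM2G085661), the entry steps of the benzoxazinoid defence pathway, while Igl, which uses the same substrate as bx1, was among the largest increases. bx1 stood at 7.49 and 19.1 in the maturing zone, against 87.3 and 266 in the base, and bx2 at 1.19 and 3.95 in the maturing zone, against 155 and 422 in the base. Their log2 differences were -3.74 ± 0.86 and -6.85 ± 1.05 (adjusted p = 0.0302 and 0.0148). The bx1 call was lost without maturing A (0.0546). TSA (GRMZM5G841619), a tryptophan synthase alpha gene, stood at 63.9 and 55.6 in the maturing zone, against 16.0 and 13.2 in the base, and rose by 2.04 ± 0.47 (adjusted p = 0.0298), a call lost without maturing A (0.131), without maturing B (0.105), without base A (0.134) and without base B (0.19) and under library totals (0.348).

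Redox genes went both ways, and flavonoid genes were called about as often as all tested genes. Of 41 redox and detoxification genes 10 rose and 10 fell (21 and 16 with the block), at a median of 0.61, which was -0.56 under library totals. Glutathione S-transferases stood on both sides: gst19 (GRMZM2G335618) stood at 13.5 and 17.9 TMM-scaled CPM in the maturing zone, against 0.0544 and 0.0915 in the base, gst9 (GRMZM2G126763) at 0.123 and 0.493 in the maturing zone, against 41.6 and 50.4 in the base, and gst13 (GRMZM2G126781) at 0.964 and 0.986 in the maturing zone, against 57.9 and 137 in the base. Their differences were 7.75 ± 0.82, -7.47 ± 0.90 and -6.64 ± 0.74 (± SE, n = 2 per zone; edgeR adjusted p = 0.013 for each). Of 15 flavonoid and anthocyanin genes 3 rose and 2 fell (7 and 7 with the block), at a median of 0.00022. Without the block both shares lay near the 13.8% higher and 17.0% lower of all tested genes. The chalcone synthase whp1 (GRMZM2G151227), the entry step, had 220 and 99 reads in the maturing zone, against 2 and 0 in the base, 335-fold higher with an exact 95% interval of 92.0 to 2780 (edgeR adjusted p = 0.0138). f3h (GRMZM2G062396), flavanone 3-hydroxylase, stood at 14.5 and 32.1 in the maturing zone, against 1.18 and 2.26 in the base, and rose by 3.76 ± 0.74. The anthocyanin glucosyltransferase bz1 (GRMZM2G165390) stood at 0.296 and 1.18 in the maturing zone, against 11.1 and 136 in the base, and fell by 6.76 ± 1.57, with base library B far above base library A. The regulator pac1 (GRMZM2G058432) stood at 6.79 and 6.51 in the maturing zone, against 38.7 and 44.4 in the base, and fell by 2.64 ± 0.48 (adjusted p from 0.0189 to 0.031 over the 3). The f3h call was lost without maturing B (0.0582) and that of pac1 without maturing A (0.0807) and without maturing B (0.0803). Of 13 lignin and phenylpropanoid genes 1 fell and 12 did not pass (8 fell and 5 rose with the block), at a median of -1.38. It was cad1 (GRMZM2G046070), a cinnamyl alcohol dehydrogenase of monolignol synthesis, at 1.14 and 1.97 in the maturing zone, against 41.9 and 96.3 in the base, which fell by 5.50 ± 0.75 (adjusted p = 0.0136).

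These counts moved with the settings. Higher and lower members numbered 16 and 11 under library totals for defence, 3 and 7 under library totals for flavonoids, and 0 and 7 under library totals, 2 and 6 without a count filter, 1 and 6 in DESeq2's test, 0 and 5 without maturing B, 0 and 6 without base A and 3 and 1 without base B for lignin. The defence median was -0.16 under library totals, and -0.18 without maturing B, and the benzoxazinoid median was 0.31 without base B. The lignin median was -2.61 under library totals, -2.11 without maturing B, -0.53 without maturing A and -0.0061 without base B. Genes whose differences moved by over 1.5-fold without a library were TIFY15 (6.90 without maturing B), lox1 (-5.23 without base B), bx1 (-3.15 without maturing A, -4.58 without maturing B, -4.32 without base A and -2.75 without base B), bx2 (-6.14 without maturing A, -7.95 without maturing B and -5.99 without base B), gst9 (-6.50 without maturing A and -8.55 without maturing B), gst13 (-5.92 without base B), f3h (3.05 without maturing B), bz1 (-5.88 without maturing A, -7.94 without maturing B, -7.65 without base A and -4.04 without base B), cad1 (-4.81 without base B) and whp1 (10.72 without base A and 7.94 without base B).

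Wall growth, cuticle and cytoskeleton genes were mostly lower in the maturing zone. Of 33 primary wall growth genes 17 fell and 1 rose (25 and 1 with the block), at a median of -2.57. The 1 that rose was xet1 (GRMZM2G026980), a xyloglucan endotransglycosylase that rejoins wall polymers, at 41.9 and 94.6 TMM-scaled CPM in the maturing zone, against 0.149 and 0.0305 in the base, by 9.37 ± 1.04 log2 units. Of 10 wax and cuticle genes 6 fell and 2 rose (6 and 3 with the block), at a median of -2.87. The fatty acid elongase gene fae1 (GRMZM2G022558) stood at 5.51 and 7.10 in the maturing zone, against 99.6 and 204 in the base, and fell by 4.59 ± 0.65. gl1 (GRMZM2G114642), a glossy gene of leaf wax, stood at 161 and 571 in the maturing zone, against 0.652 and 2.29 in the base, and rose by 7.97 ± 1.22 (± SE, n = 2 per zone; edgeR adjusted p from 0.013 to 0.0147 over the 3). CER1 (GRMZM2G066578), named for an Arabidopsis alkane-forming enzyme, stood at 5.71 and 8.29 in the maturing zone, against 0.652 and 1.13 in the base, and rose by 2.98 ± 0.76 (adjusted p = 0.0389), a call lost without maturing A (0.0692), without maturing B (0.184), without base A (0.173) and without base B (0.0776) and under library totals (0.124).

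Most tubulin and actin genes were lower. Of 20 tubulin and actin genes 13 fell and 2 rose (17 and 2 with the block), at a median of -3.31. The alpha-tubulin tua5 (GRMZM2G099167) stood at 14.0 and 15.6 TMM-scaled CPM in the maturing zone, against 438 and 626 in the base, and fell by 5.17 ± 0.67. The 2 that rose were actin genes of low level, act1 (GRMZM2G126010) at 7.54 and 9.57 in the maturing zone, against 0.435 and 0.457 in the base, and Maz63 (GRMZM2G053284) at 8.67 and 10.7 in the maturing zone, against 0.530 and 0.732 in the base. They rose by 4.25 ± 0.73 and 3.94 ± 0.72 (± SE, n = 2 per zone; edgeR adjusted p from 0.0132 to 0.0188 over the 3). Actins and tubulins are families of close copies, so reads may be shared among members. The counts of higher and lower were 2 and 3 without maturing A and 2 and 3 without base B for the cuticle list. Without a library, the differences were xet1 (8.61 without maturing B, 10.93 without base A and 8.77 without base B) and gl1 (8.67 without maturing A, 6.77 without maturing B, 7.32 without base A and 9.09 without base B).

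Developmental regulators were more often lower, and hormone genes went both ways. Of 67 leaf development transcription factors 18 fell and 3 rose (36 and 12 with the block), at a median of -0.81. The YABBY factor yabby15 (GRMZM2G529859), of a family of lateral organ regulators, stood at 0.741 and 0.789 TMM-scaled CPM in the maturing zone, against 53.2 and 37.4 in the base, and fell by 5.89 ± 0.60. ocl4 (GRMZM2G123140), a homeodomain factor of the epidermis, stood at 0.717 and 1.08 in the maturing zone, against 43.1 and 46.7 in the base, and fell by 5.67 ± 0.60. Both were far below the base in each library. HB127 (GRMZM2G119999), a homeobox factor, stood at 10.5 and 29.4 in the maturing zone, against 0.353 and 1.098 in the base, and rose by 4.80 ± 0.96 (± SE, n = 2 per zone; edgeR adjusted p from 0.013 to 0.0229 over the 3). wus2 (GRMZM2G028622) had 15 and 17 reads in the maturing zone and 0 and 0 in the base, at least 22.4-fold higher taking 3 reads over the zone as the floor (adjusted p = 0.0338). Of 87 hormone genes 14 rose and 21 fell (39 and 38 with the block), at a median of 0.020. Without the block the share that rose lay near the 13.8% of all tested genes. The auxin response factors ARF16 (GRMZM2G028980) and ARF18 (GRMZM2G035405) were both lower. ARF16 stood at 4.22 and 3.85 in the maturing zone, against 70.6 and 52.9 in the base, and ARF18 at 20.3 and 15.6 in the maturing zone, against 429 and 407 in the base. Their log2 differences were -3.93 ± 0.52 and -4.54 ± 0.61 (adjusted p = 0.0134 and 0.0135). HK1b2 (GRMZM5G833140), a histidine kinase gene of the cytokinin receptor family, stood at 166 and 118 in the maturing zone, against 10.3 and 7.99 in the base, and rose by 3.95 ± 0.55 (adjusted p = 0.0138). The ethylene-forming oxidase ACO31 (GRMZM2G072529) had 236 and 209 reads in the maturing zone, against 1 and 1 in the base, 468-fold higher with an exact 95% interval of 129 to 3874 (edgeR adjusted p = 0.0135).

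Of 17 clock, phytochrome and flowering genes 4 rose and 2 fell (10 and 6 with the block), at a median of 0.91. COL8 (GRMZM2G114137), a CONSTANS-like gene, stood at 479 and 1176 TMM-scaled CPM in the maturing zone, against 9.01 and 28.7 in the base, and rose by 5.46 ± 1.03 (± SE, n = 2 per zone; edgeR adjusted p = 0.0201). ZCN3 (GRMZM2G338454), of the same family as ZCN26, had 0 and 0 reads in the maturing zone, against 60 and 18 in the base, at least 12.4-fold lower against 3 reads over the zone (adjusted p = 0.0324). DLF1 (GRMZM2G067921), a bZIP factor of floral transition in maize, had 2 and 1 reads, against 86 and 71, and was 24.9-fold lower with an exact 95% interval of 8.37 to 122 (edgeR adjusted p = 0.0301). The 2 family members ZCN26 and ZCN3 thus lay on opposite sides. The ZCN3 call was lost without maturing A (0.242) and without maturing B (0.0643), and that of DLF1 without maturing A (0.238), without maturing B (0.0955) and without base B (0.0609). Higher and lower members numbered 3 and 28 under library totals and 5 and 10 without maturing A for leaf development factors, 23 and 23 in DESeq2's test and 17 and 11 without maturing A for hormones, and 2 and 5 under library totals for the clock and flowering list. Medians under library totals were -1.12 for hormones and -0.20 for clock and flowering genes. Leaving out a library changed by over 1.5-fold HB127 (5.41 without maturing A, 3.85 without maturing B, 4.18 without base A and 5.77 without base B), COL8 (4.65 without maturing B, 4.85 without base A and 6.49 without base B), ACO31 (9.83 without maturing A, 7.97 without maturing B and 8.56 without base A), wus2 (9.03 without maturing A and 7.14 without maturing B), DLF1 (-3.99 without maturing A) and ZCN3 (-6.94 without base A).

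Protein synthesis genes were mostly lower. Of 47 ribosomal protein and translation factor genes 29 fell and 1 rose (41 and 5 with the block), at a median of -2.40. The acidic ribosomal proteins arpp2a-3 (GRMZM2G010257) and RPP2A (GRMZM2G119809) were both lower. The level of arpp2a-3 was 2.67 and 2.17 TMM-scaled CPM in the maturing zone, against 57.9 and 67.3 in the base, and that of RPP2A 18.0 and 14.8 in the maturing zone, against 167 and 165 in the base. Their log2 differences were -4.68 ± 0.53 and -3.33 ± 0.51 (± SE, n = 2 per zone; edgeR adjusted p = 0.013 and 0.0147). The 1 that rose, rpl19 (GRMZM2G171444), a ribosomal protein gene by its symbol, stood at 968 and 666 in the maturing zone, against 126 and 177 in the base, and rose by 2.43 ± 0.66 (adjusted p = 0.0448). That call was lost without maturing A (0.189), without maturing B (0.0657), without base A (0.223) and without base B (0.128) and under library totals (0.166). The list's counts of higher and lower members were 0 and 7 without maturing A, 0 and 8 without maturing B and 0 and 19 without base A. Copies of ribosomal protein genes may share reads.

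Of 28 chaperone and heat shock genes 9 fell and 5 rose (14 and 9 with the block), at a median of -0.53. CPN60I (GRMZM2G458208), a mitochondrial chaperonin, stood at 4.82 and 2.56 TMM-scaled CPM in the maturing zone, against 91.9 and 46.4 in the base, and fell by 4.21 ± 0.67. The heat shock factor HSF2 (GRMZM2G088242) stood at 0.0741 and 0.197 in the maturing zone (3 and 2 reads), against 6.05 and 13.2 in the base. It fell by 6.35 ± 1.03. By contrast, Hsf01 (GRMZM2G165998) stood at 443 and 305 in the maturing zone, against 35.1 and 26.3 in the base, and rose by 3.61 ± 0.61. Members of 1 factor family thus lay on both sides. The small heat shock protein hsp 17.2 (GRMZM2G158232) stood at 32.0 and 49.9 in the maturing zone, against 0.870 and 2.77 in the base, and rose by 4.50 ± 0.80 (± SE, n = 2 per zone; edgeR adjusted p from 0.0155 to 0.0181 over the 4). Of 12 genes on a list of abundant housekeeping genes 5 fell and 7 did not pass (7 fell and 4 rose with the block), at a median of -1.06. Cytosolic glyceraldehyde-3-phosphate dehydrogenases of glycolysis were among them. GAPC3 (gpc3, GRMZM2G071630) stood at 13.0 and 14.6 in the maturing zone, against 386 and 641 in the base, and gpc4 (GRMZM2G176307) at 5.24 and 7.10 in the maturing zone, against 218 and 348 in the base, and their log2 differences were -5.22 ± 0.69 and -5.52 ± 0.66 (adjusted p = 0.0134 and 0.013). Higher and lower counts were 2 and 13 under library totals and 2 and 11 without base A for chaperones. Single values that moved by over 1.5-fold without a library were CPN60I (-3.63 without base A), HSF2 (-5.54 without maturing A, -6.99 without maturing B and -5.71 without base B) and hsp 17.2 (3.89 without base A and 5.52 without base B).

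Across the 103 named genes, 93 were called without the block, and 79 of these stayed called in each of the 4 fits with 1 library left out. The sign of a called difference turned in 0 of them.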

How the data were processed

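RNA-seq counts of 2 maturing zone and 2 base libraries were used. Chromatin files were not analysed here. Per the submitters' processing notes, the genome build was B73 RefGen_v3 and the tools included Trimmomatic 0.32, CASAVA 1.8.2, edgeR and DiffBind 1.10.0, with no step given for each. The aligner, the counter and the kit's strandedness were not given in the sources used here. Thus overlapping, antisense and near-identical genes may share reads. The deposited table holds whole-number exon read counts per feature, per the file headers, and the authors' RPKM for each library. It also holds the authors' signed fold change score and FDR-corrected p-value per feature, deposited without replicate values. Its fold was positive where the maturing zone was higher and negative where it was lower, in 7634 of 7634 genes under its FDR of 0.05. Columns name zone and letter, and 0 per-sample columns were left unused.

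All 110149 features entered edgeR 4.0.16 (R 4.3.3), with filterByExpr (minimum count 10), TMM scaling and quasi-likelihood tests, adjusted by Benjamini-Hochberg over the 26787 features tested in all classes, of which 23552 were protein-coding. TMM factors were 0.800 and 0.554 in maturing A and B and 1.67 and 1.36 in base A and B. Standard errors are the log2 difference over the square root of F. Differences are maturing zone minus base. TPM is the authors' RPKM rescaled to a protein-coding sum of 1000000. Scripts were tested on simulated data.

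The labels put base and maturing pieces on the same leaves but do not say that a letter marks 1 pool in both zones. The A minus B differences correlated between zones at r = 0.806, so both fits are given. Alternatives were library totals, DESeq2 size factors, TMM without the 100 most read genes, no count filter, DESeq2 1.42.0, protein-coding features alone, and each library left out, where the lone library is assumed to vary like the other zone.

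Symbols came from a RefSeq table of assembly Zm-B73-REFERENCE-NAM-5.0, in which 18818 of 39313 genes matched, 2606 with a symbol and 518 to more than 1 RefSeq gene. It gives no product names, so lists rest on symbols, and matches whose other names showed another gene were removed after the lists were seen. Members and lists were chosen with earlier results of these data known. Named genes are the 10 most abundant per zone, the 12 largest called differences per direction with a symbol, outside the C4 and cell cycle lists, without overlap of the zones, called with the block and at 10 CPM or more in both libraries of the higher zone, and up to 2 members per list and direction with the smallest p.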

Additional observations from a re-analysis of the deposited data

How the results depend on the processing

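With the letters as a replicate block, the paired fit called 8461 genes higher and 9944 lower. It changed no call to the opposite direction. Library totals gave 7686 lower. With 1 library left out the lower count ranged from 2508 (without maturing A) to 3802 (without base A). The median log2 difference was -1.33 under library totals and -0.080 with DESeq2 size factors, and with 1 library left out it ranged from -0.46 (without maturing A) to -0.041 (without base A). Without the most read gene of each library, the 10 most read genes held 2.90% of base reads on average. Causes of these shifts were not tested, except that a blocked fit removes the shared A to B difference by construction. Of the 103 named genes, library totals took the call from 4 and added 7, and DESeq2 size factors took it from 5. TMM factors without the 100 most read genes took it from 1, and protein-coding features alone added 1. DESeq2's test, the block and the fit without a count filter each added 8 and took none away. In the fits with 1 library left out some named genes gained a call and others lost it. Without maturing A 12 lost it, without maturing B 10, without base A 6 and without base B 5. Depth ran from 18325106 exon reads in maturing B to 50657759 in maturing A, and its effect on these counts was not tested.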

Other observations

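Families grouped by symbol were chosen after the names but not the values had been seen. Their counts stand beside the 13.8% higher and 17.0% lower of all tested genes, or 35.9% and 42.2% with the block. TIFY, auxin response factor, AUX/IAA, tubulin, actin, homeobox, heat shock factor, glutathione S-transferase and lipoxygenase genes are also members of the lists above. Their counts here repeat genes already counted there and add no further support. Jasmonate-related TIFY genes had 9 of 18 tested members higher in the maturing zone and 9 not called (11 higher and 2 lower with the block), at a median log2 difference of 2.39. MYB-related factors had 8 of 19 higher and 11 not called (16 higher and 2 lower with the block), at 1.67. Potassium transporters of the HAK family had 7 of 16 higher and 2 lower (9 and 4 with the block), at 1.20, and G2-like factors, a family that holds regulators of chloroplast development, had 4 of 10 higher and 1 lower (6 and 3 with the block), at 2.30. Autophagy genes, which recycle cell contents, had 3 of 13 higher and 10 not called (7 higher with the block), at 0.80. WRKY factors, many of which act in defence, had 5 of 18 higher and 2 lower (9 and 5 with the block), at 0.88.

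Other families were more often lower. Alpha and beta tubulins had 10 of 11 members lower, and all 11 with the block, at a median of -5.17, whereas actins had 2 of 7 higher and 3 lower (2 and 4 with the block), at -1.77. Kinesins, motors that run on microtubules, had 6 of 12 lower and 1 higher (8 and 3 with the block), at -3.02. Protein disulfide isomerases, which fold secreted proteins, had 6 of 14 lower (13 with the block), at -2.40, and ROP GTPases, switches of cell polarity, had 4 of 7 lower (6 with the block), at -1.84. Auxin response factors had 7 of 17 lower and 1 higher (12 and 4 with the block), AUX/IAA proteins 6 of 17 lower and 2 higher (11 and 6), and SBP factors 7 of 21 lower and 2 higher (12 and 4), at medians of -1.62, -0.87 and -1.41 in that order. Of bHLH factors 12 of 41 were lower and 5 higher (22 and 16 with the block), at -1.29. Counts of the remaining families follow, with those under the block in brackets. MYB factors had 4 of 28 higher and 5 lower (13 and 11). NAC factors had 6 of 20 higher and 3 lower (9 and 8). bZIP factors had 5 of 28 higher and 2 lower (14 and 11). AP2/EREBP factors had 1 of 26 higher and 6 lower (8 and 12). Homeobox factors had 3 of 18 higher and 4 lower (7 and 6). Heat shock factors had 3 of 8 higher and 1 lower (5 and 1). Trihelix factors had 0 of 13 higher and 2 lower (4 and 3). TCP factors had 1 of 7 higher and 1 lower (3 and 1). PP2C phosphatases had 4 of 19 higher and 1 lower (13 and 4). Annexins had 2 of 9 higher and 4 lower (4 and 4). Glutathione S-transferases had 7 of 25 higher and 9 lower (13 and 11). SET domain genes had 0 of 8 higher and 1 lower (2 and 3). Lipoxygenases had 1 of 11 higher and 2 lower (3 and 5). These counts were not recomputed under the other settings apart from the block.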
